A study of Mus musculus with 28 samples.

Results

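The genes described here are 33 genes of cholesterol metabolism in mouse liver: 18 enzymes of cholesterol synthesis, 3 sterol sensors, 4 proteins of sterol transport and lysosomal release, 2 esterifying enzymes, and 6 genes of sterol export and the oxysterol response. They were chosen by name in the annotation of the array, with the older name Sc4mol accepted for Msmo1, and each was represented by its brightest probe. All 33 were measured, among 21851 genes tested, and all were well above background on all 28 arrays. Gene expression was profiled on 28 one-colour arrays, 1 array for the liver of each male C57/6J mouse. Feeding began at 7 weeks of age and lasted 26 weeks, so that the mice were 33 weeks old at sampling. The study asked what quercetin and resveratrol supplementation did to the liver transcriptome under high fat feeding. The supplemented mice received the high fat diet with 0.4% quercetin (4 g per kg of diet, HQ, 5 livers), with 0.4% resveratrol (4 g per kg, HR, 6 livers) or with 0.2% of each compound (2 g of each per kg, HQR, 6 livers). The unsupplemented high fat group (HFD) had 6 livers and the standard diet group (SD) had 5. Livers whose RNA was degraded were not put on arrays.

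Cholesterol is built from acetyl-CoA through the mevalonate pathway, squalene and lanosterol, and the enzymes of this path are transcribed under SREBP-2, a membrane-bound factor that is released when the sterol content of the endoplasmic reticulum falls. Sterol excess holds this factor back, while oxysterols activate the LXR receptors, which raise the transporters that export cholesterol into bile and lipoproteins. In the liver, synthesis therefore tends to fall and export to rise when sterol supply is ample.

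Expression is given as the log2 of the processed signal, minus the 75th percentile of these log2 values on that array, and is called log2 signal below. A level of 1 gene cannot be set against that of another, because probes differ in brightness. Differences are between group means, with standard errors (SE) from a limma fit of all 28 arrays, and a gene was called when its p-value, after Benjamini-Hochberg adjustment across the 21851 genes, was under 0.05. In bulk liver RNA, fewer cells of a type and less RNA per cell cannot be told apart. Precision is limited by how many arrays each diet had. Arrays had 59.8% to 82.3% of their probes well above background and lay on 9 slides scanned on 4 days. All 5 measured hepatocyte markers were well above background on all 28 arrays, Alb among them. The log2 of the summed signal of the hepatocyte list spanned 9.10 to 10.89 in HQ, 9.80 to 10.61 in HR, 9.78 to 10.71 in HQR, 9.67 to 10.95 in HFD and 9.56 to 11.21 in SD. Among 39 measured markers of 9 liver, blood and contaminating cell types, 0 passed in the mean of the high fat groups against SD, beside 0.16% of all genes. With slide as a block, where 0.49% of all genes passed, Tat, a hepatocyte enzyme of tyrosine breakdown, did (log2 difference -1.18, adjusted p = 0.0434 by limma). Sinusoidal endothelial markers had a median difference of 0.52 in that comparison, and stellate and fibroblast markers one of 0.44. The 3 adipocyte markers, all lower, had one of -0.58. These 3 were dim: Adipoq, Plin1 and Retn were well above background on 25, 24 and 10 of the 28 arrays. In HFD against SD, 5 of 7 Kupffer cell and macrophage markers were lower, with a median of -0.51, where 55.38% of all genes were lower. The adipocyte median was -0.88 in HFD against SD. The log2 of the summed signal of the Kupffer list spanned 3.04 to 4.14 in HFD and 3.87 to 5.34 in SD. That of the adipocyte list spanned -3.05 to -1.46 in HFD and -2.59 to -1.01 in SD. Their part in the results below was not tested.

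In the mean of the 4 high fat groups against the standard diet, all 18 synthesis enzymes had negative differences, and 1 member passed the test. Squalene epoxidase, Sqle, which commits squalene to sterols and is a rate-limiting step of the pathway, fell 2.99-fold in the mean of the 4 high fat groups. The export half-transporter Abcg8 had a positive difference, of 1.83-fold in HFD livers, without passing. In the mean of the 4 high fat groups against SD, 1 of 33 members was called, beside 0.16% of all genes tested. In HFD against SD, 0 of 33 members were called, beside 0.114% of all genes. These comparisons share the SD and HFD arrays. At an unadjusted p under 0.05, 9 members were lower and 1 was higher in HFD than in SD, where 2.8% of all genes were lower and 3.35% were higher. For the mean of the 4 high fat groups against SD the counts were 10 lower and 2 higher, where 3.58% of all genes were lower and 3.61% were higher. The median difference over the 33 members was -0.24 in HFD minus SD and -0.23 in the high fat mean minus SD, beside -0.04 and -0.03 over all genes tested. Without SD replicate 1 the counts were 6 lower and 1 higher in HFD, with a median of -0.12. In the high fat mean they were 5 lower and 2 higher, with a median of -0.20, and 13 of 18 synthesis enzymes had negative differences. The shares and medians of all genes given above are from the fit that includes SD replicate 1. Those of the fit without it are not given here. An open diamond marks replicate 1 of SD in the plot of 8 members by diet, because that liver stood apart from the other SD livers for many members.

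**Figure D1:**
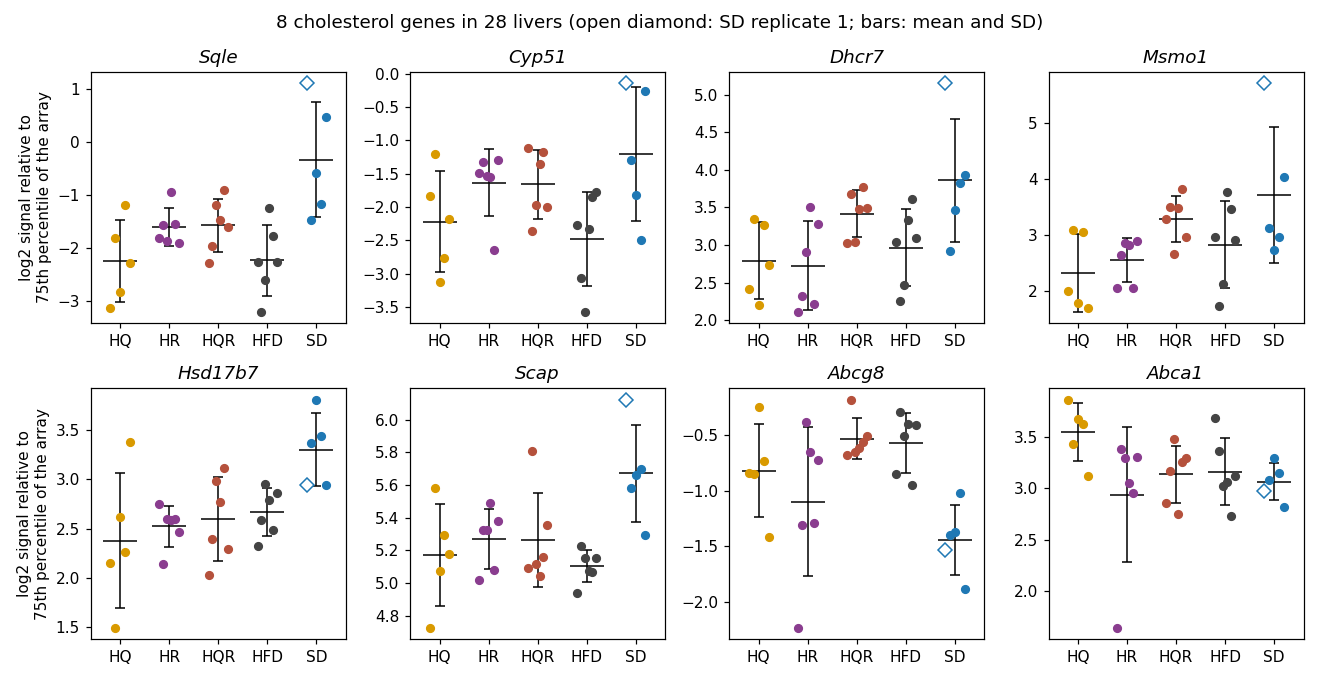
Log2 signal, with the 75th percentile of each array at 0 (y axis), for 8 members in every liver, by diet (x axis). Points are livers, bars are means and SDs, and the open diamond is SD replicate 1. Sqle was at or below -0.91 in all 23 high fat livers, and all 6 HFD livers lay above all 5 SD livers for Abcg8 and below them for Scap.

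Sqle was measured with a probe at chr15:59162384-59162443 on the plus strand of build mm9. Its log2 signal in HQ livers was -3.12, -1.80, -2.83, -1.18 and -2.27. It had a lowest, median and highest signal of -1.89, -1.68 and -0.93 in HR livers, of -2.27, -1.53 and -0.91 in HQR livers and of -3.19, -2.26 and -1.24 in HFD livers. The SD livers had 1.11, -1.46, -0.58, -1.17 and 0.47. All 23 high fat livers lay below the SD mean, but the groups overlapped, since SD replicates 2 and 4 lay within the range of the high fat livers. The high fat mean fell by 1.58 on the log2 scale relative to SD (SE 0.332, limma adjusted p = 0.0435). HFD alone averaged -2.22 ± 0.669 (SD, n = 6) and SD averaged -0.32 ± 1.09 (SD, n = 5), a difference of -1.90 (SE 0.407) that missed the threshold in the limma fit (adjusted p = 0.0615).

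The call of Sqle was narrow. With slide as a block the high fat mean was 1.64 lower on the log2 scale and passed (log2 difference -1.64, limma adjusted p = 0.0488), as 1 of 33 members, beside 0.49% of all genes. Within the 5 slides that held SD and high fat livers together, the difference was negative each time, from -3.66 to -0.40, and within the 4 slides with HFD and SD it ran from -3.37 to -1.42. Leaving out each array in turn kept the call in 10 of 28 fits. It was lost without SD replicates 1, 3 or 5, HFD replicates 1, 2, 3 or 6, HQ replicates 1 or 3, HR replicates 2, 3, 5 or 6, and HQR replicates 1, 2, 3, 4 or 6, with limma adjusted p-values of 0.05055 to 0.173. Without SD replicate 1 the difference was -1.22 (limma adjusted p = 0.163), and without SD replicate 5 it was -1.38 (limma adjusted p = 0.173). HFD against SD alone passed without SD replicates 2 or 4, HFD replicate 4 or HQ replicate 4. No sign changed in any of these fits.

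SD replicate 1 had the highest signal of all 28 livers for 13 of the 18 synthesis enzymes and for 16 of the 33 members, beside 5.048% of all genes tested. It was above the other 4 SD livers for 13 synthesis enzymes, or 72.222%, where 20.58% of all genes were. Idi1, the isomerase that balances the first 5-carbon units, stood at 4.07 in this liver and at 1.24 to 2.48 in the other SD livers. Hmgcs1, which makes HMG-CoA, stood at 7.45 against 5.13 to 6.12. In the same liver the LXR genes Nr1h3 (2.79) and Nr1h2 (1.60) were below the other SD livers (3.50 to 4.03 and 2.10 to 2.51). Lysosomal acid lipase, Lipa, was the lowest of all 28 livers there, at 3.19. In all, 3 of 33 members were below the other 4 SD livers, where 5074 of the 21851 genes tested were. The clock gene Per1 was also the lowest of all 28 livers in SD replicate 1 (-1.78), where the other SD livers had 1.22 to 2.15. Nr1d1, another clock gene, was the highest of all (1.01), where the other SD livers had -1.57 to 0.26. Angptl4, a lipase inhibitor that responds to fasting, had 6.05 there, the lowest of all 28 livers, where the other SD livers had 7.24 to 8.69. The part of feeding state or time of day in these values was not tested. Without this liver, 4 synthesis enzymes were lower at an unadjusted p under 0.05 in the high fat mean, in place of 7. The median difference of the synthesis enzymes was -0.22 in place of -0.39. Values over all genes in the fit without this liver are not given here.

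Among the enzymes that work on lanosterol and later sterols, Cyp51, the lanosterol demethylase, had the next largest difference after Sqle in HFD. Its signal in HQ livers was -1.84, -1.20, -3.12, -2.77 and -2.18. The lowest, median and highest signals were -2.64, -1.51 and -1.29 in HR, -2.35, -1.66 and -1.11 in HQR, and -3.57, -2.30 and -1.78 in HFD. SD livers had -0.14, -1.30, -1.82, -2.49 and -0.26, so that HFD and SD overlapped through 2 SD livers. The difference of HFD from SD was -1.27 (SE 0.409, limma adjusted p = 0.498), and it was negative within all 4 slides that held both groups. In the high fat mean it was -0.80 (SE 0.334, limma adjusted p = 0.558). The dimmer probes of Cyp51, well above background on 19 and 9 arrays, gave -0.48 and -1.31 for HFD against SD.

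Msmo1 removes the methyl groups that follow the Cyp51 step. It stood at 2.00, 3.09, 1.78, 3.06 and 1.69 in HQ livers, and its lowest, median and highest signals were 2.05, 2.73 and 2.89 in HR, 2.67, 3.38 and 3.83 in HQR and 1.74, 2.94 and 3.77 in HFD. SD livers had 5.71, 3.12, 2.74, 2.96 and 4.03. Only SD replicates 1 and 5 were above all 23 high fat livers. The high fat mean differed from SD by -0.96 (SE 0.348, limma adjusted p = 0.4165) and by -0.46 without SD replicate 1, so that this liver moved the value by more than 1.5 times.

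Dhcr7, which performs the last reduction to cholesterol, had 2.41, 3.35, 2.20, 3.27 and 2.73 in HQ livers. Its lowest, median and highest signals were 2.11, 2.61 and 3.50 in HR, 3.03, 3.49 and 3.77 in HQR and 2.25, 3.07 and 3.61 in HFD. In SD livers it had 5.15, 2.92, 3.46, 3.82 and 3.93. All 23 high fat livers lay below the SD mean of 3.86, with overlap. The high fat mean differed from SD by -0.88 (SE 0.271, limma adjusted p = 0.258), and by -0.56 without SD replicate 1.

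Hsd17b7, the ketosteroid reductase of the same demethylation sequence, did not share the height of SD replicate 1. Its signal in HQ livers was 2.15, 1.49, 2.62, 2.27 and 3.38, and its lowest, median and highest signals were 2.14, 2.59 and 2.75 in HR, 2.03, 2.59 and 3.12 in HQR and 2.33, 2.69 and 2.95 in HFD. SD livers had 2.95, 3.37, 3.81, 3.44 and 2.94, so that 22 of 23 high fat livers lay below the SD mean. The high fat mean differed from SD by -0.76 (SE 0.203, limma adjusted p = 0.152), and by -0.85 without SD replicate 1. Ebp, the sterol isomerase, spanned 7.66 to 8.39 in HQ, 7.64 to 8.13 in HR, 7.92 to 8.35 in HQR, 7.84 to 8.30 in HFD and 8.02 to 8.39 in SD. The 5 HQ livers had 7.66, 7.72, 7.69, 8.07 and 8.39 and the 5 SD livers had 8.19, 8.02, 8.07, 8.39 and 8.38, with medians of 7.74 in HR, 8.08 in HQR and 8.14 in HFD. Its high fat mean differed from SD by -0.23 (SE 0.122, limma adjusted p = 0.75).

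The other 12 synthesis enzymes had high fat means between 0.75 and 0.06 below SD on the log2 scale, and none passed. The larger ones were Fdft1, squalene synthase (-0.75, limma adjusted p = 0.46), Mvd, which decarboxylates mevalonate diphosphate (-0.73, limma adjusted p = 0.742), and Tm7sf2, a sterol reductase (-0.53, limma adjusted p = 0.425). Pmvk and Mvk, the kinases of the mevalonate branch, had differences of -0.42 and -0.19. Lss, which cyclises squalene epoxide to lanosterol, had -0.37, and Nsdhl, another enzyme of the demethylation sequence, had -0.32. Idi1 had -0.24, Sc5d, the sterol desaturase, -0.20, and Acat2, the thiolase that makes acetoacetyl-CoA in the cytosol, -0.11. Hmgcs1 had -0.07 and Fdps, farnesyl diphosphate synthase, -0.06. Without SD replicate 1, Fdft1 had -0.37, Mvd -0.32, Pmvk -0.20 and Lss -0.13, while Tm7sf2 had -0.55. The difference turned positive in that fit for Fdps (0.45), Hmgcs1 (0.32), Idi1 (0.20), Sc5d (0.09) and Nsdhl (0.04). Over all livers, all 18 synthesis enzymes had a negative difference, with a median of -0.39, where 55.54% of all genes tested did. With slide as a block 17 of 18 were negative, where 62.05% of all genes were, and without SD replicate 1 13 of 18 were. Where several probes of a gene were kept, they disagreed in sign for 8 of 19 members, namely Fdft1, Hmgcs1, Idi1, Lss, Nsdhl, Sc5d, Soat1 and Srebf2. For Fdft1 the dimmer probe gave 0.04. The array annotation places the Idi1 probe on chromosome 2, while RefSeq has the gene on chromosome 13, so the locus that it reads is uncertain.

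**Figure D2:**
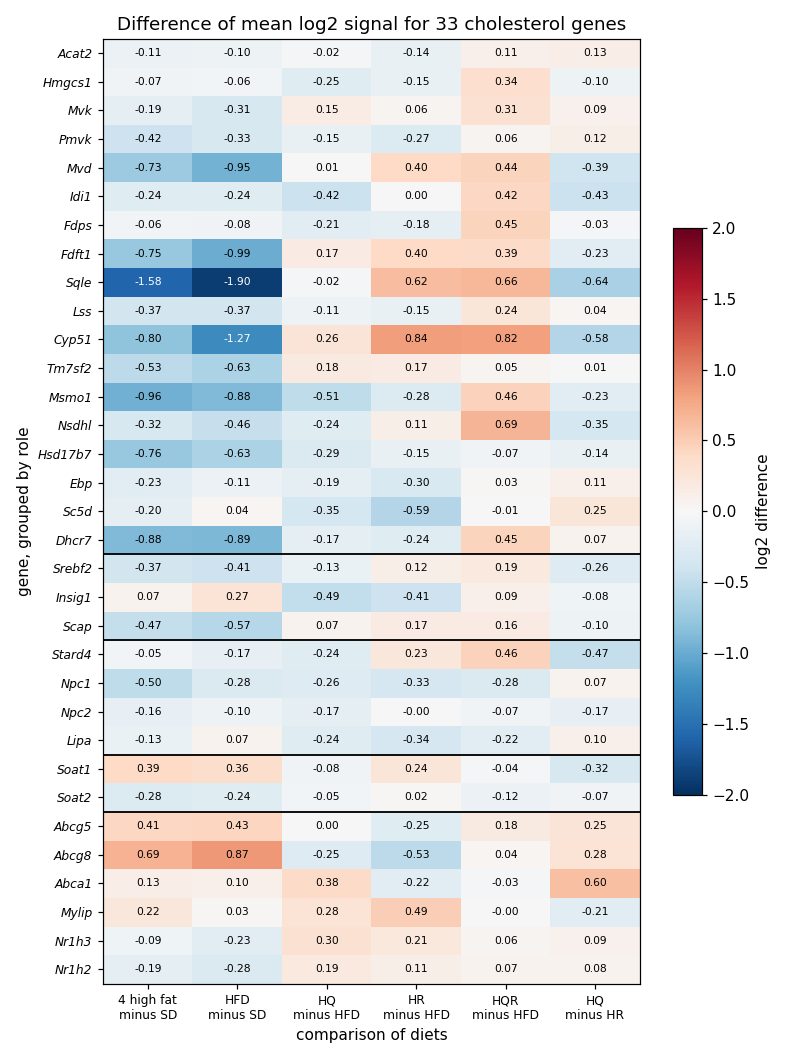
Difference of mean log2 signal between diets (colour and printed value) for the 33 members (rows, grouped by role) in 6 comparisons (columns). The synthesis rows are negative in both columns against SD, with 1 exception in HFD minus SD, and of both signs in the columns against HFD, and only Sqle in the first column passed the test.

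None of the 3 sterol sensors passed. SREBP-2 itself is encoded by Srebf2, which had 2.62, 3.54, 2.72, 3.42 and 3.10 in HQ livers. Its lowest, median and highest signals were 3.01, 3.33 and 3.65 in HR, 3.13, 3.38 and 3.74 in HQR and 2.70, 3.21 and 3.70 in HFD, and SD livers had 3.87, 3.50, 3.53, 3.75 and 3.47. The high fat mean differed from SD by -0.37 (SE 0.153, limma adjusted p = 0.548), and the groups overlapped. Scap escorts SREBP-2 to the Golgi. It had 4.73, 5.58, 5.07, 5.30 and 5.18 in HQ livers, and its lowest, median and highest signals were 5.02, 5.32 and 5.49 in HR, 5.04, 5.14 and 5.81 in HQR and 4.94, 5.11 and 5.23 in HFD. SD livers had 6.12, 5.58, 5.66, 5.70 and 5.29. Every HFD liver was below every SD liver, as held for 0.737% of all genes tested, and the difference was -0.57 (SE 0.166, limma adjusted p = 0.37). In the high fat mean it was -0.47, with overlap (limma adjusted p = 0.21).

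Insig1, which retains Scap when sterols are ample and is itself induced by SREBP-2, varied widely within each diet. It had -1.21, 0.24, -1.95, -0.44 and -1.69 in HQ livers and 0.04, -1.62, -1.36, -1.004 and -0.05 in SD livers. Its lowest, median and highest signals were -1.41, -1.104 and -0.08 in HR, -1.61, -0.33 and 0.19 in HQR and -1.72, -0.55 and 0.65 in HFD. All groups overlapped, and the high fat mean differed from SD by 0.07 (SE 0.347, limma adjusted p = 0.9996).

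Transport and lysosomal genes gave no call. Npc1, which moves cholesterol out of lysosomes, had the largest difference in the high fat mean, of -0.50 (SE 0.207, limma adjusted p = 0.544). Its luminal partner Npc2 had -0.16, Lipa had -0.13, and Stard4, a cytosolic sterol carrier that is a target of SREBP-2, had -0.05. Of the 2 enzymes that esterify cholesterol for storage, Soat1 had a difference of 0.39 (SE 0.173, limma adjusted p = 0.616). Soat2, the form of hepatocytes and enterocytes, had 0.86, 1.76, 1.96, 1.71 and 0.88 in HQ livers and 1.93, 1.49, 1.89, 2.29 and 1.00 in SD livers. Its medians were 1.47 in HR, 1.45 in HQR and 1.42 in HFD, within ranges of 1.00 to 2.05, 0.42 to 1.98 and 0.97 to 2.07. The groups overlapped, and the high fat mean of Soat2 differed from SD by -0.28 (SE 0.23, limma adjusted p = 0.984).

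None of the 6 export and oxysterol genes passed. Abcg8 and Abcg5 form the heterodimer that secretes sterols into bile, and both are LXR targets. Abcg8 had -0.84, -0.85, -0.25, -0.74 and -1.42 in HQ livers, and its lowest, median and highest signals were -2.24, -1.005 and -0.38 in HR, -0.68, -0.59 and -0.18 in HQR and -0.95, -0.46 and -0.29 in HFD. SD livers had -1.53, -1.40, -1.37, -1.02 and -1.89. Every HFD liver was above every SD liver, as held for 0.595% of all genes tested. The difference was 0.87 (SE 0.249, limma adjusted p = 0.329), it was positive within all 4 slides that held both groups, and it was 0.85 without SD replicate 1. A dimmer Abcg8 probe, also well above background on all 28 arrays, gave 0.44 for HFD against SD (SE 0.232, limma adjusted p = 0.833). For HQR against SD the brighter probe gave 0.91 (limma adjusted p = 0.221).

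The partner Abcg5 had 6.79, 7.66, 7.32, 6.89 and 5.44 in HQ livers and 6.80, 6.35, 5.94, 6.88 and 5.97 in SD livers. Its lowest, median and highest signals were 5.76, 6.70 and 7.24 in HR, 6.10, 7.02 and 7.76 in HQR and 6.63, 6.83 and 7.02 in HFD. HFD and SD overlapped, with a difference of 0.43 (SE 0.325, limma adjusted p = 0.9585). Abca1, which lipidates nascent HDL, had 3.86, 3.43, 3.68, 3.62 and 3.12 in HQ livers and 2.97, 3.08, 3.29, 3.15 and 2.82 in SD livers. Its lowest, median and highest signals were 1.64, 3.17 and 3.38 in HR, 2.75, 3.21 and 3.48 in HQR and 2.72, 3.09 and 3.68 in HFD. HFD differed from SD by 0.10 (SE 0.239, limma adjusted p = 0.961).

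Mylip, the LXR-induced ligase that removes lipoprotein receptors, had 0.84, 0.79, 1.14, 1.35 and 1.45 in HQ livers and 0.79, 1.24, 1.01, 0.87 and 0.09 in SD livers. Its lowest, median and highest signals were 0.86, 1.38 and 1.66 in HR, 0.42, 0.88 and 1.17 in HQR and 0.12, 0.91 and 1.36 in HFD. The difference of HFD from SD was 0.03 (SE 0.219, limma adjusted p = 0.986). The LXR genes Nr1h3 and Nr1h2 had differences of -0.09 and -0.19 in the high fat mean.

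Adding quercetin or resveratrol to the high fat diet gave no called member. The count was 0 of 33 in HQ, HR and HQR against HFD, beside 0.0%, 0.00915% and 0.0% of all genes, and 0 of 33 in the mean of the 3 supplemented groups against HFD, beside 0.00458%. These comparisons share the HFD arrays. At an unadjusted p under 0.05 the counts were 0 members in HQ, 4 in HR and 1 in HQR, where 2.13%, 4.92% and 1.36% of all genes reached it. The synthesis enzymes had a median difference from HFD of -0.16 in HQ, -0.14 in HR and 0.37 in HQR, beside -0.00, 0.01 and 0.05 over all genes tested, and 16 of 18 were positive in HQR. With slide as a block the synthesis medians were 0.0002 in HQ, 0.05 in HR and 0.12 in HQR, with 16 of 18 positive in HQR. The sign thus turned in HQ and HR, but the medians over all genes moved too, to 0.06, 0.05 and -0.01. In HQR against HFD, 41.57% of all genes were negative without the block and 51.42% with it. Cyp51 had a difference of 0.84 in HR (SE 0.390, limma adjusted p = 0.9975) and 0.82 in HQR (SE 0.390, limma adjusted p = 0.987), and 0.26 in HQ. Sqle had differences of 0.62 in HR and 0.66 in HQR, and of -0.02 in HQ. Mylip was 0.49 above HFD in HR and Ebp was 0.30 below it, and neither passed. Abcg8 was 0.53 below HFD in HR, and 0.30 below without HR replicate 1, which had the lowest signal of all 28 livers for this gene. Without HFD replicate 3, the difference of Cyp51 was 0.62 in HR and 0.60 in HQR.

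Quercetin and resveratrol, a flavonol and a stilbene, were given at the same dose of 0.4% for the same 26 weeks in HQ and HR, so these diets compare the compounds directly. This is 1 pair of compounds, tested in 33 members, and 0 of 33 were called, beside 0.0% of all genes. With 282 of 21851 genes, or 1.29%, at an unadjusted p under 0.05, 1 member was among them. Abca1 was 0.60 higher in HQ than in HR (95% interval 0.114 to 1.095, limma adjusted p = 0.9999), and 0.35 higher without HR replicate 1. Sqle was 0.64 lower in HQ than in HR (difference -0.64, 95% interval -1.48 to 0.19), and Cyp51 was 0.58 lower (difference -0.58, 95% interval -1.42 to 0.26). The intervals of the other members leave room for differences in both directions: that of Dhcr7 ran from -0.61 to 0.75, that of Insig1 from -0.96 to 0.80, and that of Abcg5 from -0.41 to 0.92. The mixture HQR held each compound at a lower dose and was not set against HQ or HR.

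Against SD, the synthesis enzymes had negative differences for 18 of 18 in HQ and in HR, and for 12 of 18 in HQR. Of all genes tested, 58.01%, 57.31% and 48.76% had negative differences. The medians of the synthesis enzymes were -0.57, -0.49 and -0.20. Without SD replicate 1 the counts were 16 in HQ, 14 in HR and 9 in HQR, with medians of -0.32, -0.24 and -0.01. With slide as a block they were 16, 18 and 15, with medians of -0.50, -0.56 and -0.43. In that fit 55.46%, 60.21% and 63.79% of all genes had negative differences. Over all genes tested, the fit of all 28 arrays without a block gave medians of -0.05, -0.05 and 0.01. With slide as a block the medians over all genes were -0.04, -0.06 and -0.10. Sqle differed from SD by -1.92 in HQ, -1.27 in HR and -1.24 in HQR, and Hsd17b7 by -0.92, -0.78 and -0.70. No member was called in these 3 comparisons, beside 0.0366%, 0.0549% and 0.0503% of all genes, nor in the F test over the 5 diets, beside 0.105%. The lowest F test p-values among members were those of Sqle (limma adjusted p = 0.28) and Abcg8 (limma adjusted p = 0.654).

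**Figure D3:**
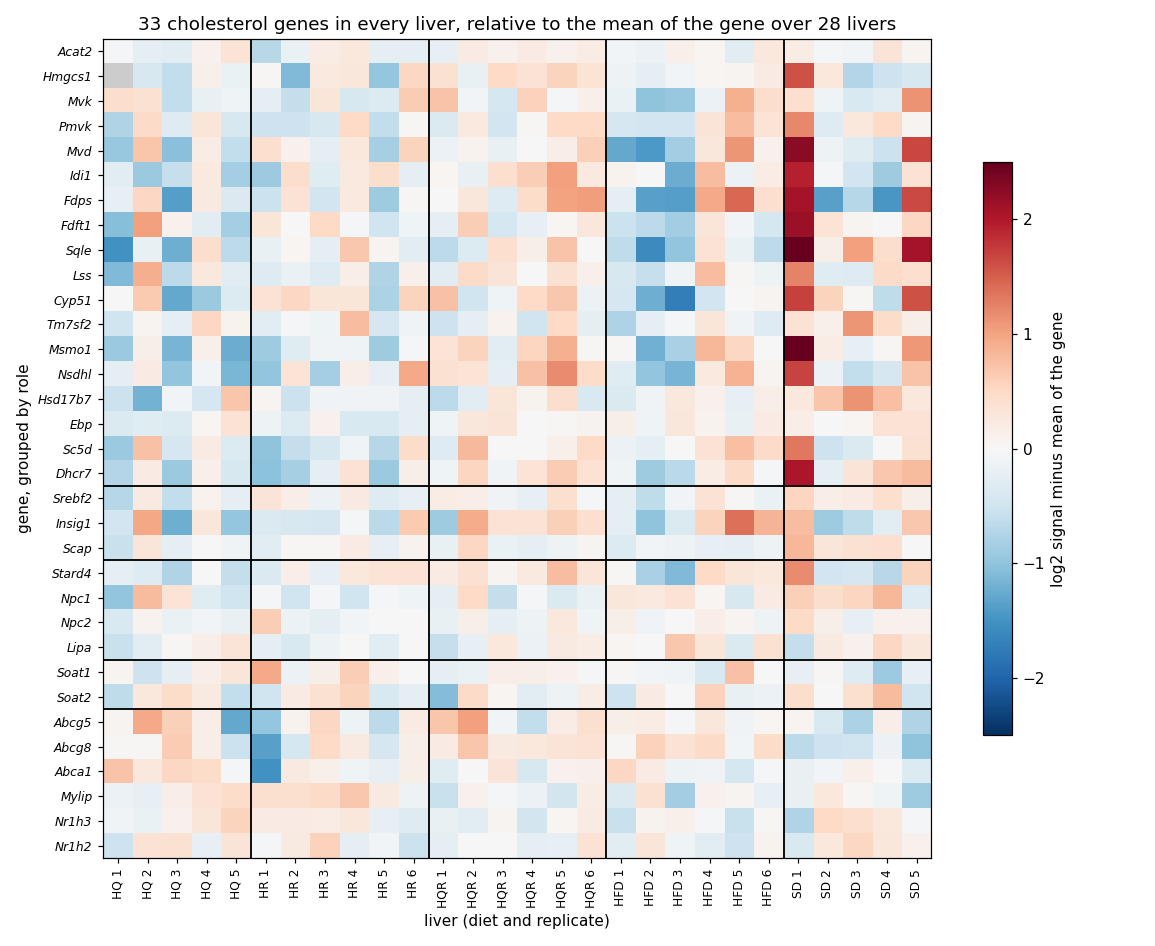
Log2 signal of the 33 members (rows, grouped by role) in each of 28 livers (columns, by diet and replicate), relative to the mean of the gene over all livers; the grey cell is a missing value of Hmgcs1. SD replicate 1 is red across most synthesis rows, and many synthesis rows change colour together from liver to liver within each diet.

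Many of the synthesis genes varied with Sqle between livers of the same diet, as columns of like colour in the heat map of every liver. To measure this, each gene was taken as its deviation from the mean of its diet group and correlated with Sqle over all 28 livers, in 32 relations. Fdps followed Sqle with r = 0.79 and rho = 0.75, Msmo1 with r = 0.76 and rho = 0.68, and Stard4 with r = 0.76 and rho = 0.73. The unadjusted permutation p-values of r were 2e-05, 0.00016 and 0.00013, and those of rho were 0.00015, 0.00097 and 0.00027. Dhcr7 (r = 0.74, rho = 0.64), Mvd (r = 0.74, rho = 0.69) and Lss (r = 0.73, rho = 0.64) came next, with permutation p-values of r of 8e-05, 0.00073 and 0.00053. Insig1 reached r = 0.67 and Srebf2 r = 0.58, so that the sterol sensor and the gene of the factor itself were among those that followed. Over the 31 members without a missing value, 14 were positively related at an unadjusted permutation p under 0.05, 11 of them synthesis enzymes, beside 2.95% of all genes. Of all 21664 genes compared, 0 passed when the permutation p-values were adjusted over all of them, 1138 (5.25%) had an unadjusted p under 0.05, and the lowest adjusted p of a member was 0.217. By the size of r, 12 members were among the 100 genes that followed Sqle most closely, and 13 of 32 members had r over 0.5, beside 0.725% of all genes.

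**Figure D4:**
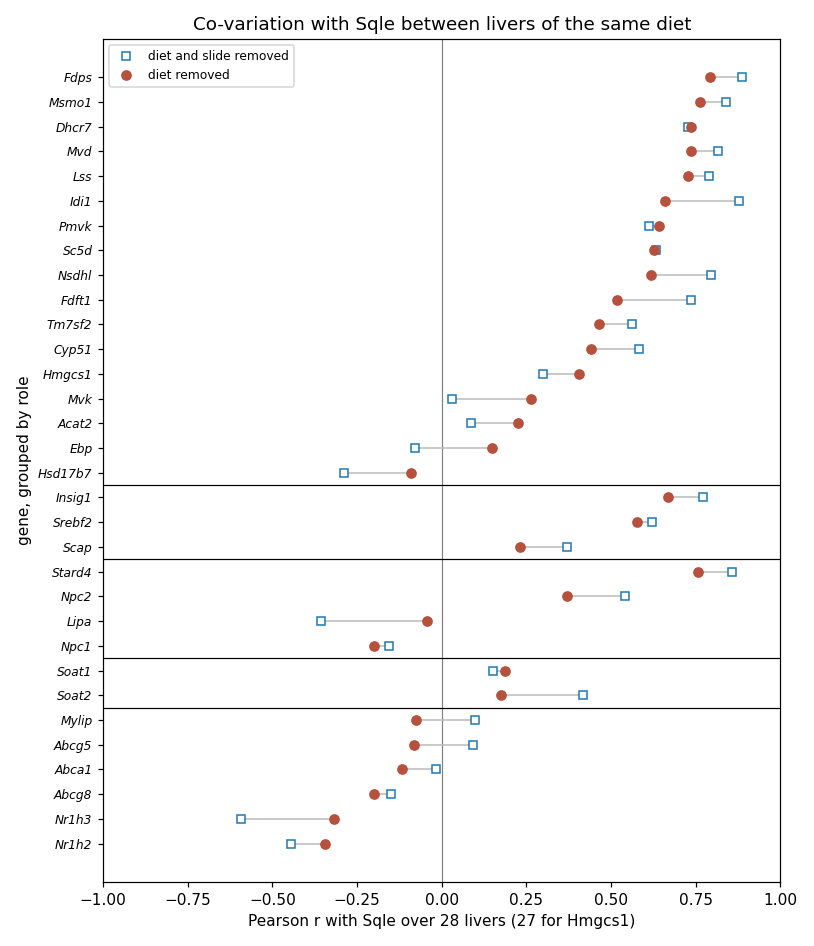
Pearson r of each member with Sqle over livers (x axis), as deviations from the diet means (filled circles) and from diet and slide means (open squares), by role (rows). Most synthesis genes, Insig1, Srebf2 and Stard4 lie between 0.4 and 0.9, while Hsd17b7, Ebp and the export genes lie near or below 0.

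Most of these relations held without the livers of extreme Sqle, but that of Fdft1 was 0.52 over all livers and 0.36 without them. Without the 2 livers farthest from the median of Sqle, r was 0.71 for Fdps, 0.69 for Msmo1, 0.68 for Stard4, 0.61 for Dhcr7, 0.62 for Insig1 and 0.57 for Srebf2. Without SD replicate 1 it was 0.73 for Fdps, 0.68 for Msmo1 and 0.65 for Dhcr7. With slide removed as well as diet, r was 0.89 for Fdps, 0.88 for Idi1, 0.86 for Stard4 and 0.84 for Msmo1, and 16 of 32 members had r over 0.5, where 2.3% of all genes did. Not every synthesis enzyme took part. Hsd17b7 had r = -0.09, Ebp 0.15, Acat2 0.23 and Mvk 0.26, and Cyp51, with r = 0.44, followed Sqle less closely than Lss, the enzyme before it in the pathway. The 6 export and oxysterol genes had r between -0.35 and -0.08. Nr1h3, the LXR alpha gene, had r = -0.32 with diet removed, and -0.06 without SD replicate 1, so that this value rested on that liver. With slide removed as well, r was -0.59, and this value was not recomputed without SD replicate 1.

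The promoters of 4 members are shown: Msmo1, Srebf2 and Insig1, which followed Sqle, and Hmgcs1, which holds the sterol core more than once but followed Sqle less closely. Windows from 250 bases before to 50 bases after the transcription start were taken from RefSeq (build GRCm38.p6), which held such windows for 27 of 33 members, all but Fdft1, Fdps, Npc1, Soat2, Sqle and Stard4. Capitals mark 3 motifs, each searched on both strands: the core of a sterol regulatory element, TCACNCC, the CCAAT box of NF-Y, and the GC box GGGCGG of Sp1, both of which are known partners of SREBP at sterol-responsive promoters. The promoters of Msmo1 (chr8:64733529-64733828, minus strand), Srebf2 (chr15:82147019-82147318, plus strand) and Hmgcs1 (chr13:119690101-119690400, plus strand) hold the sterol core, and that of Insig1 (chr5:28071162-28071461, plus strand) does not.
Msmo1: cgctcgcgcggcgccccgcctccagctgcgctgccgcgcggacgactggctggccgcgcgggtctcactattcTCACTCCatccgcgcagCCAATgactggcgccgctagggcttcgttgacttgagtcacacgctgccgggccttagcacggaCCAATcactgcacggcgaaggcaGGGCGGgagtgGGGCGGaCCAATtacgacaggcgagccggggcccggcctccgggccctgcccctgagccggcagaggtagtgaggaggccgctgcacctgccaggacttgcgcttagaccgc
Srebf2: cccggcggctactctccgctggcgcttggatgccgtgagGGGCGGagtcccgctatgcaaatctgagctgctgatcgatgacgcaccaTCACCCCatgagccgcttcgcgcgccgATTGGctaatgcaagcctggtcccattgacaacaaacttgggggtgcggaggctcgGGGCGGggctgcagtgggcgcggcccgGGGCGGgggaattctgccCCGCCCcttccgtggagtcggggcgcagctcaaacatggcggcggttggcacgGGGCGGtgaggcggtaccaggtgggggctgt
Hmgcs1: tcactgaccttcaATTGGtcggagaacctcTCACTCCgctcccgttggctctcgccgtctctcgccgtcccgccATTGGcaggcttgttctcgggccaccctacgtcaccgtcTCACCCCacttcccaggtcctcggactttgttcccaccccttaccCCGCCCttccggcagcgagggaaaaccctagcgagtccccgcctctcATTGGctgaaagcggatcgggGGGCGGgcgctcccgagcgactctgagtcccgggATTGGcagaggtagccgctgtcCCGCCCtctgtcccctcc
Insig1: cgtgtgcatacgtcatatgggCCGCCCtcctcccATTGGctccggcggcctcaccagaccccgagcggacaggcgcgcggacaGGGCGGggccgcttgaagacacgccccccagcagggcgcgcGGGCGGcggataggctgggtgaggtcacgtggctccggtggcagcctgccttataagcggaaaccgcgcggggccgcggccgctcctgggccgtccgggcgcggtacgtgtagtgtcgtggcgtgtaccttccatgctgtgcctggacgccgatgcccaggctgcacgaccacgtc

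The sterol core began 177 bases before the start in Msmo1, 162 before it in Srebf2, and 220 and 137 before it in Hmgcs1. It lay in 16.67% of 18 windows of synthesis genes and in 15.63% of all 32851 windows. The CCAAT box lay in 77.78% of the synthesis windows and in 37.41% of all windows, and the GC box in 83.33% and 35.66%. Msmo1 and Srebf2 followed Sqle while Hmgcs1, with more motifs than either, had r = 0.41, and 0.12 without SD replicate 1. Acat2, with the sterol core 66 bases before its start, had r = 0.23. Insig1 followed Sqle with no sterol core in its window. A match of letters is a description of the window and does not show a bound site.

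Among 37 further genes of the pathway, listed by role as neighbours of the members, 0 passed in HFD or in the high fat mean against SD in the fit without a block. At an unadjusted p under 0.05, 7 were lower and 1 was higher in the high fat mean, and their median difference was -0.14, where 3.58% of all genes were lower, 3.61% were higher and the median was -0.03. With slide as a block 1 of them passed, beside 0.49% of all genes in the high fat mean and 0.146% in HFD against SD. This was Aacs, a cytosolic ligase that feeds acetoacetate into sterol and fatty acid synthesis. It was higher in the high fat mean (log2 difference 2.37, limma adjusted p = 0.000991) and in HFD (2.22, limma adjusted p = 0.012). The difference of Aacs was thus of the opposite sign to those of the synthesis enzymes. Without the block its differences were 1.81 and 2.15, at limma adjusted p-values of 0.0785 and 0.131.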

How the data were processed

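RNA from 28 livers was hybridised to one-colour Agilent arrays. Intensity values per spot were extracted with Feature Extraction 10.5.1.1 (protocol GE1_105_Dec08), per the file headers, which applies background correction before the processed signal. The authors also deposited a value table of scores: each array has mean 0 and SD 1, medians of -0.169 to -0.0992, and a correlation with the log2 signal of at least 0.999946, in the same direction and on a scale of 3.21 log2 units; the step that made it is not given in the sources used here. Log2 values were computed here from the deposited processed signals, minus the 75th percentile of each array. Control spots and outlier flags were left out, spots of a probe were averaged, and probes well above background on at least 5 arrays were kept (32078 of 41174). The brightest probe stood for a gene.

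One limma fit (limma 3.58.1, R 4.3.3) of all 28 arrays gave every contrast without a block, with Benjamini-Hochberg adjustment over 21851 genes, and 186 genes had a missing value. Hmgcs1 lacked 1 value, in HQ replicate 1, which its fit dropped. Correlations used 100000 permutations within diets (Python 3.11.15, scipy 1.17.1). In data simulated for HFD against SD over 21665 genes, 31 of 100 genes changed 2-fold and 83 of 100 changed 4-fold were called, and 0 unchanged genes were. Replicate numbers were checked as pairs: deviations of the 5 HFD and SD pairs correlated at 0.217 to 0.698, all over 0.1, whereas in the other 9 pairs of groups they did not all pass.

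All 33 members are named by role. For some members, values are given of every HQ and SD liver, and the lowest, median and highest of HR, HQR and HFD. These are the members that passed in any comparison and the 8 with the smallest F test p. Sqle, Cyp51, Srebf2, Insig1, Soat2, Abcg5, Abca1 and Mylip were included whatever their values. The members and lists were chosen with earlier results of these data known. Alternatives covered normalization, background correction, the filter, probe averaging, the deposited table, the arrays fitted, the spread, slide, scan day, replicate number and each array left out.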

Additional observations from a re-analysis of the deposited data

Results flagged for a closer look

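Among 70 groups of values (14 members in 5 diets), 5 held a liver far from the others of its diet, where chance flags about 1 in 20 groups. Abca1 in HR replicate 1 had a log2 signal of 1.64, and the nearest HR liver had 2.96. Abcg8 in HQR replicate 2 had -0.18, and the nearest HQR liver had -0.51. Cyp51 in HR replicate 5 had -2.64, with the nearest at -1.55. Insig1 in HQR replicate 1 had -1.61, with the nearest at -0.37. Sqle in HR replicate 4 had -0.93, with the nearest at -1.54.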

How the results depend on the processing

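Of 88 differences of named members, 18 turned sign under at least 1 alternative, none of them past the threshold in either direction. Over all alternatives 3732 values kept their direction and side of the threshold, 24 lost a call, 11 gained one and 72 turned sign. In the high fat mean against SD the count of called members was 1. It was 0 with array-median scaling, normexp correction (log2 difference of Sqle -1.01, limma adjusted p = 0.157), no filter or array weights, and 2 (Hsd17b7 and Sqle) with slide as a random block. Of alternatives chosen after seeing the data, leaving out slide 8 and combining quantile normalization with a slide block each gave 0. Leaving out 1 array at a time gave 0 to 2. In HFD against SD the count was 0, and it was 1 (Sqle) with quantile normalization, the strict filter, an intensity trend with robust estimation or a random slide block, and 0 to 1 with 1 array left out. In HQR against SD it was 0, and 1 (Abcg8) with a random slide block. The cause was not tested. The share of all genes called also moved with the setting. From no block to slide as a block it went from 0.16% to 0.49% in the high fat mean against SD. It went from 0.114% to 0.146% in HFD against SD and from 0.0503% to 0.229% in HQR against SD. Shares under the other alternatives are not given here, so these counts do not set the members apart from all genes. The replicate block, which pairs HFD with SD, gave a log2 difference of Sqle of -1.87 in HFD against SD (limma adjusted p = 0.0747) and changed no call in any comparison. Adjusted over only the 32 relations of members with Sqle, 13 members passed, and 9 to 17 did under the alternatives. Adjusted over all 21664 genes compared, 0 genes passed, and the lowest adjusted permutation p of a member was 0.217. The number of arrays limits what could be detected.

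The following differences turned sign under at least 1 alternative, and the cause was not tested. In the high fat mean against SD, Acat2 had 0.0188 after quantile normalization and 0.0487 in the combined quantile and slide fit. Fdps had 0.37 with array weights and -0.44 to 0.45 with 1 array left out. Hmgcs1 had 0.0499 after quantile normalization, 0.0602 with slide as a block, 0.15 in the combined quantile and slide fit and -0.26 to 0.32 with 1 array left out. Idi1 had 0.0063 over all its probes and -0.51 to 0.20 with 1 array left out. Insig1 had -0.0903 with slide as a block, -0.0468 with slide as a random block, -0.0069 with the replicate block, -0.0299 without slide 8, -0.12 in the combined quantile and slide fit and -0.13 to 0.28 with 1 array left out. Mvk had -0.32 to 0.0535 with 1 array left out. Nr1h3 had 0.0169 after quantile normalization, 0.0321 with slide as a block, 0.11 in the combined quantile and slide fit and -0.30 to 0.0122 with 1 array left out. Nsdhl had -0.53 to 0.0449 with 1 array left out. Sc5d had 0.30 over all its probes, 0.0244 with array weights and -0.37 to 0.0894 with 1 array left out. Stard4 had 0.12 with array weights and -0.23 to 0.23 with 1 array left out. In HFD against SD, Abca1 had -0.0037 to 0.19 with 1 array left out. Ebp had 0.0778 after quantile normalization and 0.0419 in the combined quantile and slide fit. Mylip had -0.10 with array weights, -0.0107 without slide 8 and -0.15 to 0.17 with 1 array left out. In HQ against HR, Abcg5 had -0.0435 in the combined quantile and slide fit. Dhcr7 had -0.0284 with array weights and -0.0697 to 0.23 with 1 array left out. Insig1 had 0.11 after normexp correction, 0.21 with slide as a block, 0.0114 with slide as a random block, 0.12 with scan day as a block, 0.0285 with the replicate block, 0.0899 without slide 8, 0.24 in the combined quantile and slide fit and -0.39 to 0.16 with 1 array left out. In HQ against HFD, Cyp51 had -0.15 over all its probes, -0.10 with array weights and -0.0001 to 0.48 with 1 array left out. Sqle had 0.0043 with array-median scaling, 0.43 after normexp correction, 0.0443 with slide as a block, 0.11 with scan day as a block, 0.0695 without slide 8 and -0.28 to 0.20 with 1 array left out.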
